A study of Mus musculus with 8 samples.

Results

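The liver turns the nitrogen of amino acids into urea. Ammonia freed in the mitochondrion is joined to bicarbonate by carbamoyl phosphate synthetase and then to ornithine, the citrulline formed leaves for the cytosol, a nitrogen from aspartate is added, and urea is finally split off, which leaves ornithine to return to the mitochondrion. In the liver lobule this machinery lies in hepatocytes around the portal vein, whereas a rim of hepatocytes around the central vein captures the ammonia that escapes by making glutamine. The genes described here were 8 named genes of this route: Cps1, Otc, Ass1 and Asl, which encode enzymes of the cycle, Nags, which makes the activator of Cps1, Slc25a15, the ornithine carrier, and Gls2 and Sds, which free ammonia from glutamine and serine. They were taken by gene name from the arrays, where all 8 were found, among 34836 names in all.

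The arrays held liver RNA of 8 male mice, 4 of the obese, diabetes-susceptible NZO strain (NZO/HiBomDife; mice 003, 007, 009 and 011) and 4 of the lean, diabetes-resistant C57BL/6 strain, called B6 (mice 009, 010, 011 and 015). All were 6 weeks old and on a high fat diet (45% fat), so no group on another diet stands beside them and the comparison is between inbred strains that differ across the whole genome. Each mouse had 1 array. The arrays were Agilent 1-colour arrays of 55681 probes, and the share of spots well above background ran from 50.4% to 55.0% in NZO and from 53.1% to 60.1% in B6. Levels are given as log2 of the processed signal minus the array's 75th percentile, so that 0 is the 75th percentile of that array. Each probe binds with its own strength, so the order of probes by brightness, used to choose 1 probe a gene and to sum marker lists, is not an order of RNA amounts. The hepatocyte markers Alb, Ttr, Apoa1, Serpina1a and Tat were above background on all 8 arrays, which matches the labelled tissue.

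The 8 genes were measured by 11 probes of 60 bases. Otc, Ass1 and Sds had 2 probes each and the other genes 1 each, and all 11 were above background on all 8 arrays. The positions in the files refer to the mouse build mm9. The probes lay at chr1:67276029-67276088 for Cps1, chr5:130487964-130488549 for Asl, chr11:102009515-102009574 for Nags, chr8:23487872-23487931 for Slc25a15 and chr10:127646830-127646889 for Gls2. The Asl probe covers 586 bases of the genome and the first Otc probe 23648, so both cross at least 1 intron and read spliced RNA. Whether the others lie in coding or untranslated sequence was not analysed here. For the 3 genes with a pair of probes, the 2 probes differ in sequence, and the last 30 bases of each probe are given 5′ to 3′, followed by its place.

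Otc probe 1, at chrX:9853843-9877490: atgcagtgttagctcgagtgtataaacaat
Otc probe 2, at chrX:9897267-9897326: atgacatttgggtatcatattaattatcat
Ass1 probe 1, at chr2:31376068-31376127: tagcctacaaaagtggtcatcgaagggaag
Ass1 probe 2, at chr2:31375998-31376057: tctccaccacctgactggggctgctgtgtc
Sds probe 1, at chr5:120933105-120933164: accccattttctccgaggtcatctcagacc
Sds probe 2, at chr5:120928999-120929058: gtcatagagcccaggagggcagcctctctt

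The Ass1 probes lie 10 bases apart, the Otc probes 19776 bases and the Sds probes 4046 bases. Ass1 probe 1 is also listed with a non-coding transcript, so its signal cannot be assigned to 1 of them. Sds probe 2 is listed with 1 Ensembl transcript and with no RefSeq transcript. Otc probe 1 was printed at 10 spots on every array, whose signals differed by a coefficient of variation between 1.86% and 2.91% within an array, and its spots were averaged.

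None of the 11 probes passed the test between NZO and B6 liver. With limma, 0 of 11 reached an adjusted p of 0.05, against 14.3% of the 27642 probes tested (6.83% higher and 7.43% lower in NZO). At an unadjusted p of 0.05 the count was also 0 of 11, by limma and by the methods' t-test. By limma 27.8% of all probes passed there, and the share by the t-test at this threshold was not counted. The thresholds of the study's methods are a p of 0.05, taken here as unadjusted, with a log2 difference of at least 0.7. They were passed by 0 of 11 probes with limma and with the methods' t-test, and by 12.2% and 10.5% of all probes. For every one of the 11 the values of the strains overlapped, whereas they did not overlap for 22.0% of all probes. The median log2 difference, NZO minus B6, was 0.13 over the 11 probes (lowest −0.68, highest 0.32) and 0.02 over all probes tested. In whole liver, fewer cells of a type and less RNA per cell cannot be told apart, and this holds for every value that follows.

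**Figure D1:**
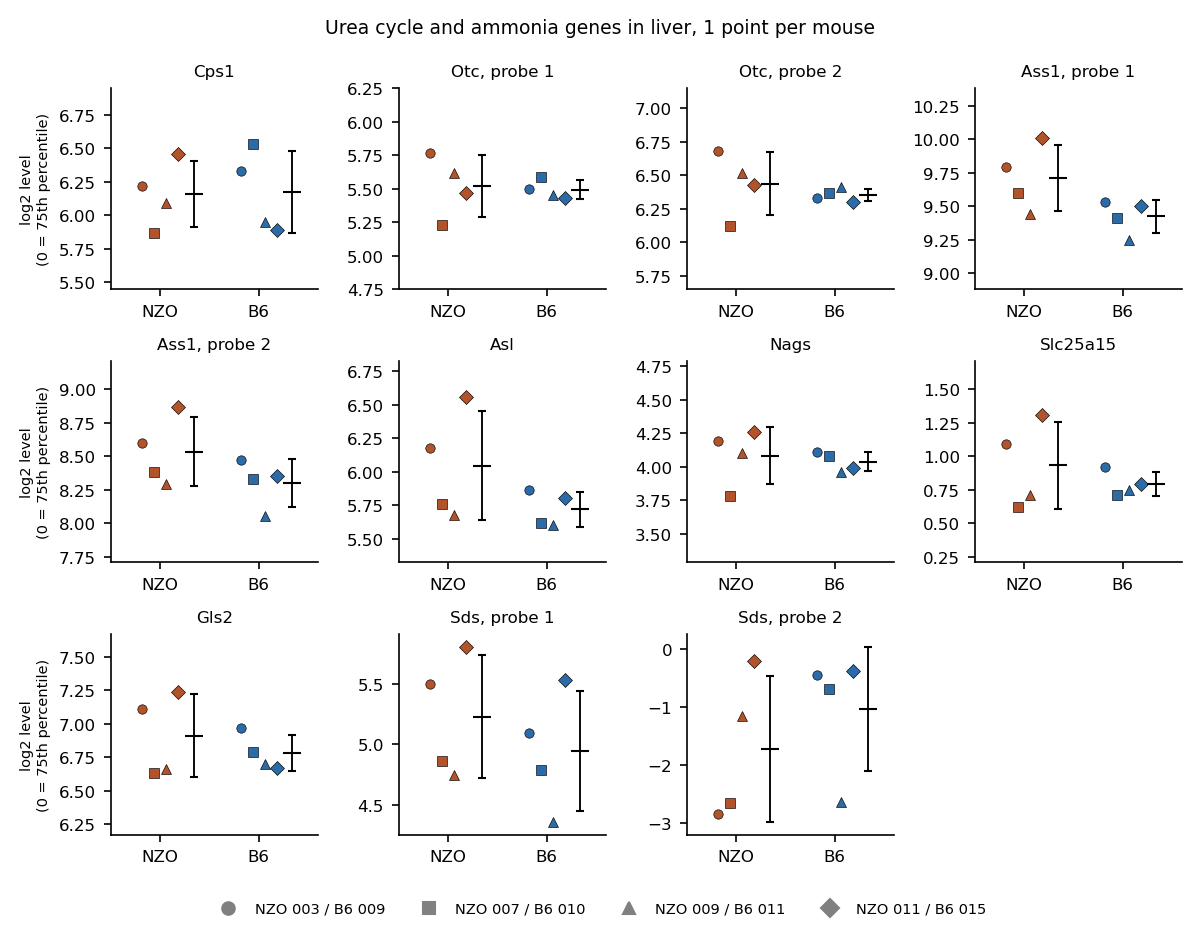
Log2 level (0 is the array's 75th percentile) of each probe in the 4 NZO and the 4 B6 mice; each point is 1 mouse, symbols only name the mouse, and the bars give the mean ± SD. The points of the strains overlap in all 11 panels, and the NZO points are the more spread out in most of them.

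At the entry of ammonia into the cycle, the values of the strains lay in the same range. Cps1, which joins ammonia to bicarbonate and is the rate-setting enzyme of the cycle, had levels of 6.22, 5.87, 6.09 and 6.46 in NZO mice 003, 007, 009 and 011, and of 6.33, 6.53, 5.95 and 5.89 in B6 mice 009, 010, 011 and 015. The highest and the lowest mouse of each strain thus covered nearly the same range. The log2 difference was −0.01 (SE 0.19, 95% interval −0.44 to 0.41, limma adjusted p = 0.971). Nags makes N-acetylglutamate, without which Cps1 is inactive. Its levels were 4.19, 3.78, 4.10 and 4.26 in the NZO mice and 4.11, 4.08, 3.96 and 3.99 in the B6 mice, in the same order of mice. NZO mouse 007 lay below all B6 mice and the difference was 0.04 (SE 0.12, interval −0.24 to 0.33, limma adjusted p = 0.848).

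Otc, which transfers the carbamoyl group to ornithine, was measured by both of its probes. Probe 1 gave 5.77, 5.23, 5.62 and 5.47 in the NZO mice and 5.50, 5.59, 5.45 and 5.43 in the B6 mice. Probe 2 gave 6.68, 6.12, 6.52 and 6.43 in the NZO mice and 6.33, 6.37, 6.41 and 6.30 in the B6 mice. With both probes NZO mouse 003 was the highest and NZO mouse 007 the lowest of the 8 mice, and the B6 mice lay between them. The differences were 0.03 (SE 0.13) and 0.08 (SE 0.13), with limma adjusted p of 0.905 and 0.716. Slc25a15 carries ornithine back into the mitochondrion. It had levels of 1.09, 0.62, 0.71 and 1.31 in the NZO mice and of 0.92, 0.71, 0.75 and 0.79 in the B6 mice, and a difference of 0.14 (SE 0.16, limma adjusted p = 0.634).

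The cytosolic enzymes that build argininosuccinate and split it had positive differences that did not pass the test. Ass1, which condenses citrulline with aspartate, had levels of 9.79, 9.60, 9.44 and 10.01 with probe 1 in the NZO mice and of 9.53, 9.41, 9.25 and 9.50 in the B6 mice. NZO mice 003, 007 and 011 lay above every B6 mouse and NZO mouse 009 among them. The difference was 0.29 (SE 0.14, interval −0.04 to 0.61, limma adjusted p = 0.23), a fold of 1.22 with 1.53 as the upper end of its interval. Ass1 probe 2 gave 8.60, 8.38, 8.29 and 8.87 in the NZO mice against 8.47, 8.33, 8.05 and 8.35 in the B6 mice, a difference of 0.23 (SE 0.15, limma adjusted p = 0.37). Asl, which cleaves argininosuccinate to arginine, had levels of 6.18, 5.76, 5.68 and 6.56 in the NZO mice and of 5.86, 5.62, 5.60 and 5.80 in the B6 mice. Its difference of 0.32 (SE 0.20, interval −0.13 to 0.78, limma adjusted p = 0.336) rested on NZO mice 003 and 011, since mice 007 and 009 lay within the B6 range.

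Of the genes that free ammonia, Gls2, the liver glutaminase, had levels of 7.11, 6.63, 6.66 and 7.24 in the NZO mice and of 6.97, 6.79, 6.70 and 6.67 in the B6 mice. The NZO mice formed a high and a low pair around the B6 mice, and the difference was 0.13 (SE 0.16, limma adjusted p = 0.66). Sds, serine dehydratase, varied more from mouse to mouse than the other genes. Probe 1 gave 5.50, 4.86, 4.75 and 5.80 in the NZO mice and 5.09, 4.79, 4.36 and 5.53 in the B6 mice, a difference of 0.28 (SE 0.31, interval −0.43 to 1.00, limma adjusted p = 0.598). Probe 2, below the 75th percentile on every array, gave −2.85, −2.66, −1.15 and −0.22 in the NZO mice and −0.46, −0.69, −2.63 and −0.39 in the B6 mice. Both strains held mice at either end of its range, and its difference was −0.68 (SE 0.71, interval −2.30 to 0.95, limma adjusted p = 0.582).

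**Figure D2:**
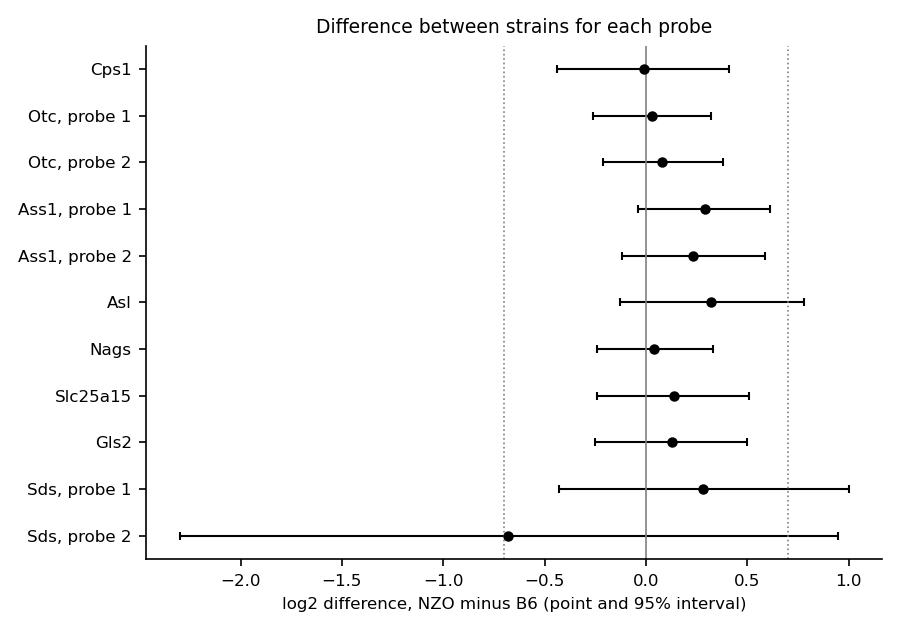
Log2 difference between the strains, NZO minus B6, of each probe with its 95% interval from limma; dotted lines mark 0.7 in either direction. All 11 intervals include 0, and those of Cps1, Otc, Ass1, Nags, Slc25a15 and Gls2 stay within the dotted lines.

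The intervals give the size of difference that 4 mice a strain left possible. For 8 of the 11 probes, covering 6 of the 8 genes, the whole 95% interval lay within a log2 difference of 0.7 in either direction. For Asl it reached 0.78 and for Sds 1.00 (probe 1) and −2.30 (probe 2). The sign of the small differences moved with the scaling of the arrays: 9 of 11 probes were above 0 with the 75th percentile, 7 with background correction by normexp, 5 with quantile normalization, 10 with the median of each array and 2 in the deposited value table, where the median of all probes was −0.15. Among the arrays of the first scan day (NZO 003, 009 and 011, B6 010 and 015) the median difference of the 11 probes was 0.20 (−0.86 to 0.43). On the second day (NZO 007, B6 009 and 011) it was −0.22 (−1.12 to 0.21). None of the 11 passed an adjusted p of 0.05 in either subset. On the 1 slide that held both strains (NZO 003, B6 010 and 015) the median was 0.33, and Sds probe 2 passed at −2.31 with an adjusted p of 0.0396 by limma. That subset holds 1 NZO mouse, which is assumed to vary like the 2 B6 mice, and the second scan day likewise.

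What the genes did share was a pattern between mice of 1 strain. After each strain's mean was subtracted, the brightest probes of the 8 genes averaged 0.16, −0.28, −0.19 and 0.32 in NZO mice 003, 007, 009 and 011, and 0.11, 0.01, −0.16 and 0.03 in B6 mice 009, 010, 011 and 015. NZO mouse 011 was the highest NZO mouse for 8 of the 10 probes other than Sds probe 2, and for 16.1% of all 13224 tested probes with a mean level above 0. NZO mouse 007 was the lowest for 6 of the 10, and for 46.5% of those probes. Otc was the exception, with NZO mouse 003 the highest on both probes. Over the 8 arrays the deviations of the 8 genes correlated positively in 28 of 28 pairs, with a median r of 0.71. The highest was that of Slc25a15 with Asl (0.97) and the lowest that of Ass1 with Otc (0.06). The 8 points of each pair come from the same arrays and so share their RNA, labelling and scaling, and no test was made. The 28 pairs are formed from only 8 genes and are not separate observations. Pairs of other genes were not correlated in this way, so the count is not shown to be particular to these 8. The 2 probes of Ass1 correlated at 0.98, those of Otc at 0.94 and those of Sds at 0.56.

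**Figure D3:**
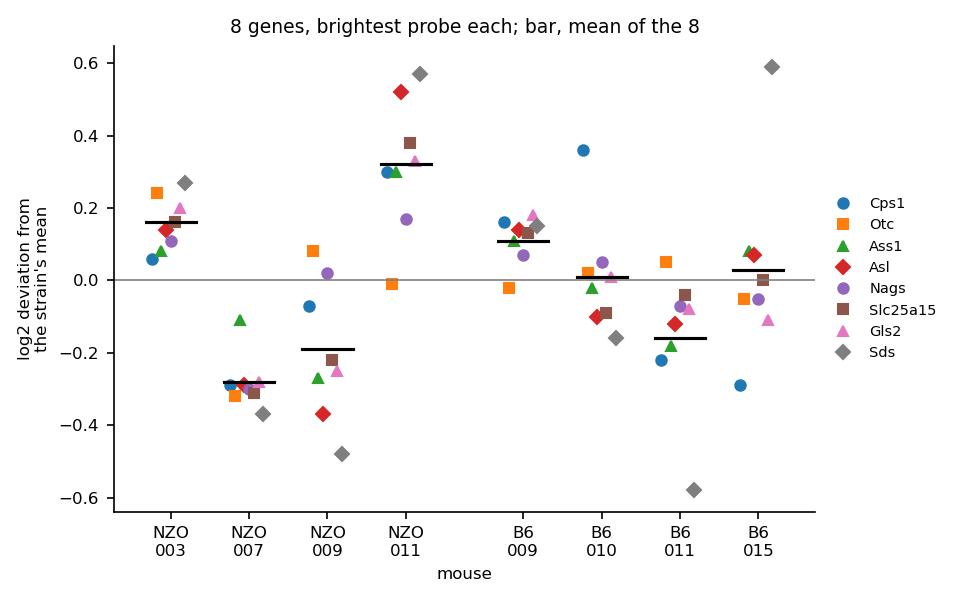
Deviation of each gene's brightest probe from the mean of its strain (log2) in each mouse, with the mean of the 8 genes as a bar. NZO mouse 011 lies highest at a mean of 0.32 and NZO mouse 007 lowest at −0.28, while Otc stays near 0 in NZO mouse 011.

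For most of these probes the NZO mice were the more variable. The probes were all read on the same 4 mice a strain, and several move together, so they are not separate measures of the spread. The SD between NZO mice exceeded that between B6 mice for 9 of the 10 probes other than Sds probe 2, with medians of 0.25 and 0.13. Over all tested probes with a mean level above 0 the medians were 0.17 and 0.13, and the NZO SD was the larger for 64.8%. The SD was 0.41 in NZO and 0.13 in B6 for Asl, 0.32 and 0.09 for Slc25a15, 0.31 and 0.13 for Gls2 and 0.23 and 0.05 for Otc probe 2. Cps1 went the other way (0.25 and 0.31). When NZO mouse 007 was left out, the 11 differences lay between −0.36 and 0.42 and none passed, and without NZO mouse 011 they lay between −1.18 and 0.19 and none passed.

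Across 20118 other genes, the deviations most like the mean of the 8 were those of Aqp4, a water channel (r = 0.993 over 8 arrays), Tmie (0.983), Car5a, the mitochondrial carbonic anhydrase that supplies bicarbonate to Cps1 (0.98), Kiss1 (0.978) and a transcript named AK033778 in the files (0.975). Among the least like were those of Dnaic1 (−0.983) and Cbfa2t3 (−0.972). The median r was 0.08, and 396 genes (1.97%) had an r above 0.8. Of the 5 most alike, Aqp4 (log2 difference −1.03, adjusted p = 0.0248) and Kiss1 (−0.86, adjusted p = 0.0432) were lower in NZO by limma, and Car5a (0.42, adjusted p = 0.0803) did not pass.

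Around these genes, some carriers and enzymes passed the test, while most of those listed did not. Counts were made on the brightest probe of each listed gene, with 7.09% of all genes higher and 7.22% lower in NZO on the same basis. Of 73 further genes in 6 lists, 68 were tested, 8 were higher, 6 were lower and 54 did not pass, with a median difference of 0.04. In the list of glutamine synthesis and of glutamine and ammonia transport, 13 of 14 genes were tested, 3 were higher, 2 were lower and the median was −0.29. Rhbg, an ammonia channel of hepatocytes around the central vein, had levels of 4.06, 3.50, 3.57 and 3.86 in NZO mice 003, 007, 009 and 011 and of 2.41, 2.14, 2.64 and 2.66 in B6 mice 009, 010, 011 and 015. Every NZO mouse lay above every B6 mouse, and Rhbg was 2.43-fold higher in NZO (log2 1.28, SE 0.17, limma adjusted p = 0.00155). Rhcg, a related ammonia channel, was above background on 4 NZO arrays and on 1 B6 array, and was tested through NZO alone. Its levels were −2.48, −1.35, −2.06 and −2.17 in the NZO mice and between −6.03 and −3.43 in the B6 mice, and its call (limma adjusted p = 0.0133) was made against B6 signals that were not well above background on the other arrays, so that no size is given for it. It is 1 of the 3 genes counted as higher here and of the 8 in all lists. Aqp8, a channel that passes water and ammonia, was higher by 0.64 (SE 0.17, limma adjusted p = 0.0379) on its brightest probe, and its other probe did not pass (0.55, adjusted p = 0.121).

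Slc1a2, the glutamate transporter of hepatocytes around the central vein, fell in NZO. Its brightest probe gave 2.19, 2.01, 2.10 and 2.13 in the NZO mice and 3.80, 3.57, 3.58 and 3.40 in the B6 mice, and it was 2.78-fold lower in NZO (log2 −1.48, SE 0.11, limma adjusted p = 6.61e-05). The other probes of Slc1a2 gave smaller differences, −0.31 (adjusted p = 0.178), with overlapping strains, and −0.76 for the dimmest (adjusted p = 0.0345), which was above background on 3 NZO and 4 B6 arrays and was tested through B6 alone, with strains that met at −3.51. Slc7a2, a carrier that brings arginine and ornithine into the cell, was at −0.24, −1.19, −0.90 and −0.22 in the NZO mice and at 1.45, 1.42, 1.07 and 1.64 in the B6 mice. It was 4.08-fold lower in NZO (log2 −2.03, SE 0.24, limma adjusted p = 0.000907), and the strains did not overlap. Glul, glutamine synthetase, was at 5.99, 5.81, 5.88 and 5.95 in the NZO mice and at 6.30, 6.14, 6.43 and 6.08 in the B6 mice. Its values did not overlap either, but the difference of −0.33 (SE 0.11, interval −0.57 to −0.08, limma adjusted p = 0.0871) did not pass. The glutamine and amino acid carriers Slc38a3 (0.23), Slc38a4 (−0.29) and Slc1a4 (0.37) did not pass.

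**Figure D4:**
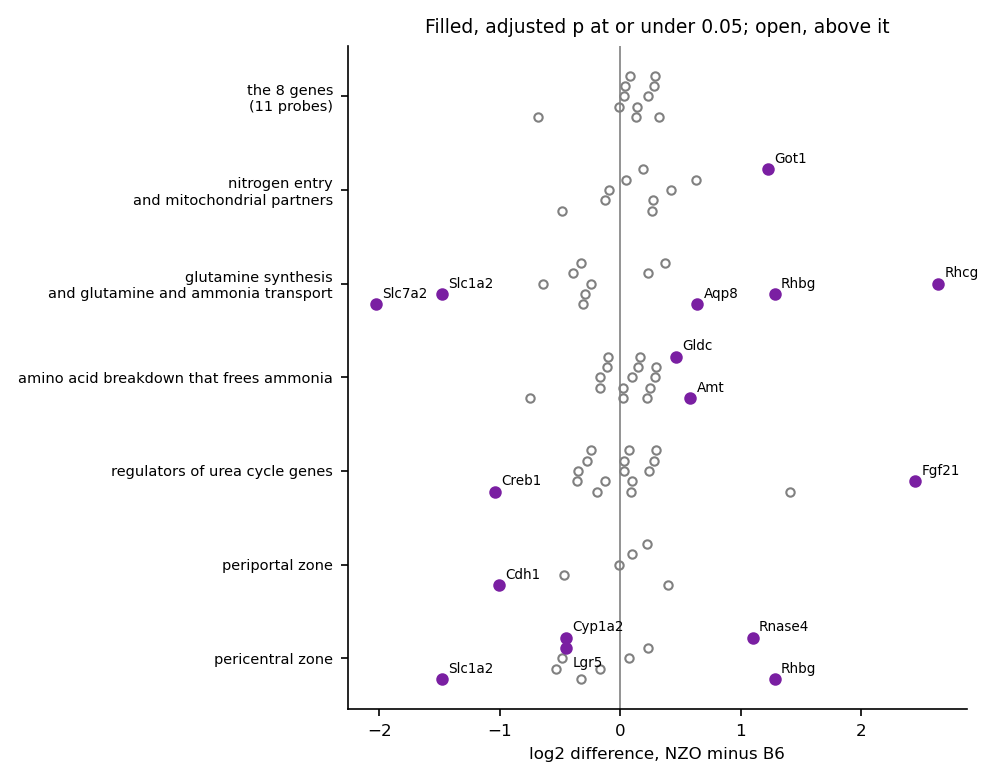
Log2 difference, NZO minus B6, of the 11 probes (top row) and of the brightest probe of each tested gene in 6 lists; filled points passed an adjusted p of 0.05 by limma. No point of the top row is filled, and the filled points of the transport list lie on both sides of 0, with Slc7a2 (−2.03) and Slc1a2 (−1.48) below it and Rhbg (1.28) and Aqp8 (0.64) above it; the point of Rhcg was read on only 1 B6 array.

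Among the enzymes and carriers that bring nitrogen to the cycle, 10 of 11 genes were tested, 1 was higher and none was lower in NZO (median 0.23). Got1, the cytosolic transaminase that makes aspartate, the second nitrogen donor, was at 7.15, 6.66, 6.52 and 7.68 in the NZO mice and at 6.34, 5.68, 5.56 and 5.50 in the B6 mice. All NZO mice lay above all B6 mice, and Got1 was 2.34-fold higher in NZO (log2 1.23, SE 0.29, limma adjusted p = 0.0245). The call was lost without NZO mouse 003 or without B6 mouse 010, 011 or 015, with differences from 1.14 to 1.20 and adjusted p from 0.0648 to 0.07. Among those that did not pass were Glud1, glutamate dehydrogenase, at 0.27, the transaminases Got2 at 0.26 and Gpt at −0.13, and Oat, ornithine aminotransferase, at −0.48 (limma adjusted p from 0.107 to 0.474).

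The list labelled amino acid breakdown that frees ammonia also holds enzymes that free none themselves, such as Cbs and Agxt. Of its 18 genes 16 were tested, 2 were higher, none was lower and the median was 0.12. Both that passed encode parts of the glycine cleavage system, Gldc (0.46, SE 0.12, adjusted p = 0.0323 by limma) and Amt (0.58, SE 0.15, adjusted p = 0.0325), while the other parts Gcsh (0.30, adjusted p = 0.0841) and Dld (0.02) did not. Hal, Ftcd, Cbs and Agxt, which handle histidine, homocysteine and glyoxylate, had differences between −0.17 and 0.29 and did not pass. Among 17 listed regulators of the cycle, 1 was higher, 1 was lower and the median was 0.03. Fgf21, a hormone the liver releases under metabolic stress, was at 0.20, 0.65, 0.84 and −1.71 in the NZO mice and at −2.88, −2.08, −1.33 and −3.53 in the B6 mice. NZO mouse 011 lay within the B6 range, and the difference was 2.45 (SE 0.65, limma adjusted p = 0.0402), or 1.35 with normexp background correction. The brightest probe of Creb1, a factor that answers to cyclic AMP, was at −1.04 (SE 0.24, adjusted p = 0.0213) and lost its call by limma without NZO mouse 003 (−1.02, adjusted p = 0.0558), while normexp background correction brought it to −0.18. A second probe of Creb1, also above background on all 8 arrays, was at −0.09 (limma adjusted p = 0.862). The nuclear receptors Hnf4a (0.03) and Ppara (0.07), the glucagon receptor Gcgr (0.09) and Atf4 (0.30) did not pass.

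The calls of Aqp8, Gldc, Amt, Fgf21, Cyp1a2 and Lgr5 were sensitive to single mice. Aqp8 passed only without B6 mouse 009, Amt only without B6 mouse 010, and Cyp1a2 only without NZO mouse 009. Gldc passed only without NZO mouse 007 or B6 mouse 009, Fgf21 only without NZO mouse 011 or B6 mouse 011, and Lgr5 only without NZO mouse 003 or 011. In the fits where they were lost the differences were 0.52 to 0.70 for Aqp8, 0.51 to 0.62 for Amt, −0.49 to −0.38 for Cyp1a2, 0.40 to 0.47 for Gldc, 2.09 to 2.57 for Fgf21 and −0.48 to −0.39 for Lgr5. All 14 called genes kept their sign under every alternative in which they were tested; Rhcg was not tested where only probes above background on all 8 arrays were kept. Slc1a2, Rhbg, Slc7a2, Cdh1 and Rnase4 were called with any 1 mouse left out. With scan day as a fixed block Gldc (0.44, limma adjusted p = 0.0538), Amt (0.55, adjusted p = 0.0534), Aqp8 (0.62, adjusted p = 0.06) and Cyp1a2 (−0.42, adjusted p = 0.0568) lost their calls, and the other called genes did not.

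Within the first and the second scan day the log2 differences were 1.43 and 0.97 for Rhbg, −1.34 and −1.68 for Slc1a2, −1.98 and −2.44 for Slc7a2 and 1.52 and 0.71 for Got1. By limma, Rhbg, Slc1a2 and Slc7a2 passed within the first day (adjusted p from 0.00758 to 0.0312), as did Rhcg, against B6 signals near background, and Slc7a2 (0.0437) was the 1 of the 14 called genes that passed within the second, which holds 1 NZO mouse. Cdh1 (−0.97 and −1.15, adjusted p = 0.0577 and 0.0685 by limma), Rnase4 (1.11 and 0.98, adjusted p = 0.0749 and 0.091) and Got1 (adjusted p = 0.0754 and 0.331) passed on neither. With slide as a fixed block Slc1a2 was the 1 gene of the 14 that kept its call (limma adjusted p = 0.0356), and the others had adjusted p from 0.0562 (Rhbg) to 0.446 (Lgr5). The strain difference in that fit rests on the 1 slide that held both strains (NZO 003, B6 010 and 015), since every other slide held 1 strain. Strain and slide cannot be told apart on the other arrays, so a call lost there cannot be set down to slide. The differences in that fit were 1.66 for Rhbg, 1.56 for Got1, 1.20 for Rnase4, −1.77 for Slc7a2, −1.07 for Cdh1 and −0.33 for Lgr5.

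**Figure D5:**
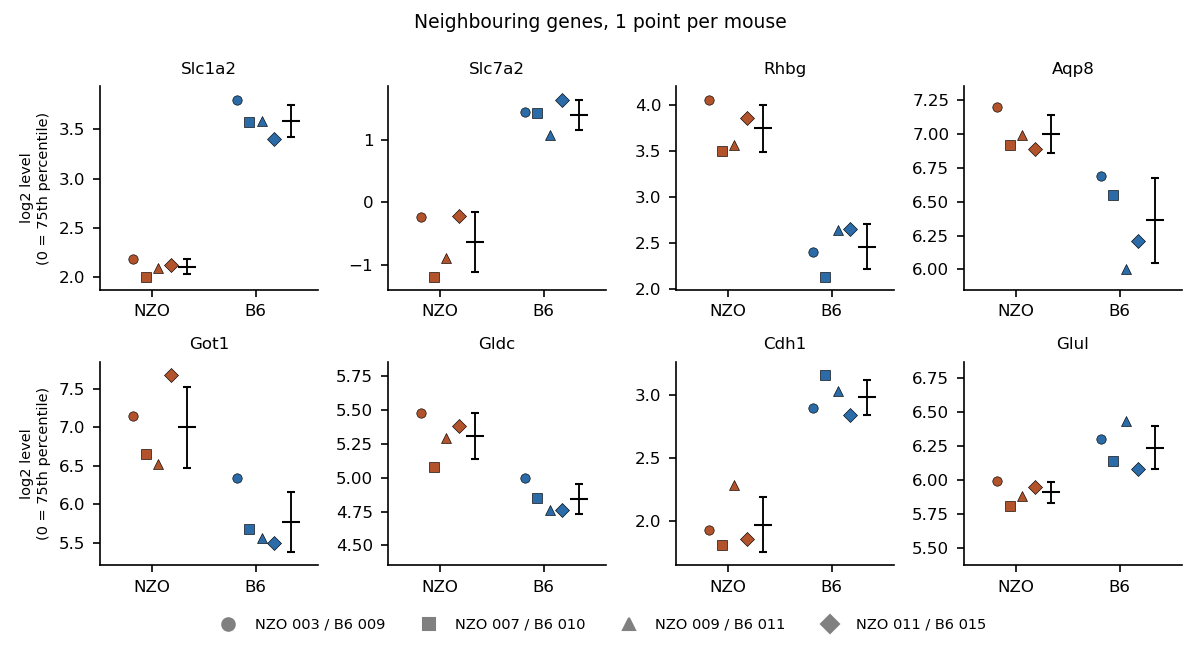
Log2 level (0 is the array's 75th percentile) of 8 neighbouring genes in each mouse, with mean ± SD; each point is 1 mouse. The 8 genes are a selection of those named, and Fgf21, which passed with overlapping strains, is not among them. The strains do not overlap in any of the 8 panels, and they did not overlap for 22.0% of all probes tested. NZO was lower for Slc1a2, Slc7a2, Cdh1 and Glul and higher for the others, and Glul is the one that did not pass the adjusted threshold.

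Since the route is zoned along the lobule, genes of either zone were set beside it. Of 6 further periportal genes, none was higher and 1, Cdh1, an adhesion protein, was lower (log2 −1.01, SE 0.14, limma adjusted p = 0.00164), with a median of 0.05. Pck1 (−0.47), Fbp1 (0.40), Hal (0.22) and Cyp2f2 (−0.01) did not pass. The brightest probe of Hsd17b13, a lipid droplet protein, did not pass either (0.10). Its second probe, above background on no NZO array and on all 4 B6 arrays, was tested through B6 alone. That probe was called lower in NZO (limma adjusted p = 0.0117) against NZO signals that were not well above background, so that no size is given for it. Of 12 pericentral genes 11 were tested, 2 were higher (Rhbg at 2.43-fold and Rnase4 at 2.14-fold) and 3 were lower (Slc1a2 at −1.48, Cyp1a2 at −0.45 and Lgr5 at −0.45), with a median of −0.33. Glul, Oat, Cyp2e1 (−0.17) and Lect2 (0.07) did not pass. The second probe of Cyp2e1, on which the strains did not overlap, was at −0.37 and did not pass (limma adjusted p = 0.0596). The lists share Hal, Glul, Oat, Slc1a2 and Rhbg, and each gene was counted once in the total.

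Markers of the cell types of the liver were set beside these values. None of the 5 hepatocyte markers passed (−0.31 to 0.27), and their summed level, in multiples of the array's 75th percentile, was between 5450 and 5710 in NZO and between 4420 and 5190 in B6, with Alb the brightest. Of 5 Kupffer cell and macrophage markers 4 were lower in NZO, namely Clec4f (−1.13), Marco (−1.83), Adgre1 (−0.62) and Cd68 (−0.42), and Lyz2 was at 0.41 and did not pass. A second, dimmer probe of Cd68 did not pass (−0.25, limma adjusted p = 0.488). Their sum was 26.9 to 31.9 in NZO and 51.3 to 85.3 in B6, with Clec4f the brightest. Of 4 red blood cell markers Hba-a1 (1.01) and Alas2 (0.90) were higher in NZO, Hbb-b1 (0.81) and Slc4a1 (0.62) did not pass, and the sum was 293 to 470 in NZO and 155 to 208 in B6. Of 4 endothelial markers Lyve1 was lower (−0.62) and Kdr (0.32 and −0.21 on its 2 probes) and Pecam1 (−0.21) did not pass. The probes of Stab2 disagreed: the brightest was higher in NZO (0.49, limma adjusted p = 0.00887), and the others were at −0.93 (adjusted p = 0.0512) and −0.44 and did not pass. Of 4 biliary markers Sox9 was lower (−1.46) and Krt19 (−0.65, limma adjusted p = 0.08) did not pass. Krt7, above background on 2 NZO and 4 B6 arrays, was tested through B6 alone and did not pass (limma adjusted p = 0.091). Epcam, above background on 3 B6 arrays and on no NZO array, was not tested. On their brightest probes none of the lymphocyte markers Cd3e, Cd79a and Nkg7 (−0.17 to 0.33) passed. A second, dimmer probe of Nkg7 did not pass either (−0.61, limma adjusted p = 0.124). None of the stellate cell markers Lrat, Des, Dcn and Reln (−0.38 to −0.20) passed.

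Markers of other organs were read in part. Adipoq, Plin1 and Lep of 5 fat cell markers and Cela3b, Pnlip, Cpa1 and Prss2 of 6 exocrine pancreas markers were above background on no array, and neither were Vil1 of 3 enterocyte markers nor Umod of 3 kidney markers. The fat cell markers Fabp4 (−0.30) and Cidec (0.42) and the pancreas markers Ctrb1 (0.37) and Cela1 (−0.53) were above background on all 8 arrays and did not pass. The sums were 3.14 to 4.60 in NZO and 4.35 to 4.88 in B6 for the fat cell list and 1.36 to 2.30 and 1.29 to 1.76 for the pancreas list. The brightest probes of the kidney markers Lrp2 and Slc34a1 were above background on 3 NZO and 4 B6 arrays. Both were tested through B6 alone and did not pass, and no size is given for them. Of the other enterocyte markers, Apoa4, an apolipoprotein that hepatocytes also make, was higher in NZO (1.23, limma adjusted p = 0.0357) and Fabp2 did not pass (0.15). Of the muscle markers, Acta1 and Myh4 were above background on 3 NZO and 4 B6 arrays, and the dimmer Tnnt3 probe on 1 NZO and 4 B6 arrays. They were tested through B6 alone and did not pass, and no size is given for them. Ckm and the brighter Tnnt3 probe were not tested. The summed level of Ckm, Acta1, Myh4 and Tnnt3 was 0.186, 16.4, 0.216 and 0.387 in NZO mice 003, 007, 009 and 011. It was 0.354, 5.48, 0.985 and 1.39 in B6 mice 009, 010, 011 and 015. The highest signal was that of NZO mouse 007, followed by B6 mouse 010, and the mean deviations of the 8 genes from their strain's mean were −0.28 and 0.01 in these mice. The part of these other cells in the levels of the 8 genes was not tested, and the differences without NZO mouse 007 are given with the spread between mice.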

How the data were processed

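Liver RNA of 4 NZO and 4 B6 mice was hybridised to Agilent 1-colour arrays, 1 array per mouse. Per the file headers, the deposited intensity values (processed signal, background-subtracted) were made with Agilent Feature Extraction 11.0.1.1; the submitters' processing notes name version 9.1. The authors' deposited value table, named as normalized, equalled the raw median signal of all 59305 spots on each array (within 0.01). Outlier spots were left out, spots of a probe averaged, and log2 signals centred on each array's 75th percentile. A probe was tested if the arrays of either strain all read it well above background (27642 probes) with limma 3.58.1 in R 4.3.3 and Benjamini-Hochberg adjustment over all of them, NZO against B6, without covariates; the fit was checked on simulated data. A call needed an adjusted p of 0.05 or less. The methods' thresholds, a p of 0.05 (taken here as unadjusted) and a log2 difference of 0.7, were the second rule. The number of arrays limits the precision. No spot was saturated.

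All probes of the 8 genes are reported; some items of the gene set and lists are not reported here and enter none of their counts. In each list the genes that passed (up to 6), the 4 brightest that did not and the cell markers are named; Gcsh, Dld and Hsd17b13 were named after their values were seen. Genes and lists were chosen with earlier results of these data known. Groups and mouse numbers came from the labels. Slides and 2 scan days, read from the files, were used as blocks and subsets. The alternatives tried were normexp (offset 50), quantile and median scaling, the deposited table, no filter or a stricter one, outlier spots kept, slide or scan day as a block, the methods' t-test, 1 probe per gene and leaving out each mouse. The probes follow the C57BL/6J reference build mm9; NZO sequence under them was not examined.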

Additional observations from a re-analysis of the deposited data

Results flagged for a closer look

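In 10 of 168 strain groups of 4 mice, over part of the probes named, the highest or lowest mouse stood apart. Its gap to the nearest other mouse was most of the strain's range, and chance gives about 1 in 20 such groups. Among the 8 genes this was Sds probe 2 alone, where B6 mouse 011 was at −2.63 and the nearest B6 mouse at −0.69. Among the neighbouring genes, Slc38a3 was at 7.05 in B6 mouse 015 with the next at 6.52. Of the hepatocyte markers, Serpina1a was at 10.70 in NZO mouse 009 (next 10.86) and Tat at 5.77 in B6 mouse 011 (next 6.52). Of the markers of other cells, Acta1 was at 2.81 in NZO mouse 007 (next −2.94), Cd68 at 1.79 in NZO mouse 007 (next 1.47), Krt7 at −5.00 in NZO mouse 011 (next −3.62), Reln at −0.35 in B6 mouse 010 (next −0.93), Cela1 at −2.55 in B6 mouse 015 (next −1.72) and Ctrb1 at −0.23 in B6 mouse 011 (next 0.32). Some named probes are not among the 10, although a mouse stood apart on them in the same way. NZO mouse 007 was at 0.10 for Ckm (next −6.02). On the 2 Tnnt3 probes it was at 0.06 (next −3.34) and 1.26 (next −5.22). NZO mouse 003 was at 6.57 on the brightest Gcsh probe (next 6.34). Values are log2 levels relative to the array's 75th percentile.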

How the results depend on the processing

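For the 8 genes the count of called probes stayed at 0 higher and 0 lower under every alternative but 1, the slide with both strains, where 1 was lower (Sds probe 2), and at 0 with each mouse left out. Over all probes, 1887 higher and 2053 lower became 991 and 3357 in the deposited table, 504 and 984 with slide as a fixed block, 854 and 802 within scan day 1, 277 and 554 within scan day 2, 260 and 610 within the slide with both strains, and 1192 lower with the methods' t-test after adjustment; with 1 mouse left out they ranged from 1405 to 1885 and from 1493 to 1926. For the 8 higher and 6 lower genes of the 6 lists, the deposited table gave 5 and 14, the median of each array 5 and 4, no filter on dim probes 3 and 3, slide as a fixed block 0 and 1, scan day as a fixed block 5 and 5, scan day 1 2 and 2, scan day 2 0 and 1, the slide with both strains 0 and 0, the methods' t-test after adjustment 2 and 3 and at the methods' thresholds 5 and 4, limma at those thresholds 5 and 5, and leaving out 1 mouse 3 to 7 and 4 to 6. The subsets hold 3 to 5 arrays, and with slide as a fixed block the strain difference rests on the 1 slide with both strains. With the mouse number as a replicate block, which rests on the numbers 009 and 011 that both strains share, 72 probes were higher and 134 lower, with 0 and 0 listed genes; same-numbered mice did not deviate together (correlations of −0.26 and 0.00 over 27634 probes), so the numbers were not taken as pairs. The signs of the small differences of the 8 genes changed with the scaling. The brightest probe of Creb1 had a smaller difference with normexp (−0.18), and the cause was not tested.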
